A study of Mus musculus with 16 samples.

Results

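The miRNAs described here are those of the miR-188, miR-362, miR-500, miR-501, miR-532 and miR-660 cluster on the mouse X chromosome. Members were taken by name, as every array row that carries one of these names with the mouse prefix, with or without an arm suffix. The rule found 9 mature miRNAs among the 611 mouse miRNAs on the array: both arms of miR-188, miR-362, miR-501 and miR-532, and mmu-miR-500-3p. MiR-660 and miR-500-5p were not analysed here. Feature Extraction, the scanner software, called 5 of the 9 detected on all 16 arrays, and 6 of the 9 were tested, being detected throughout 1 group or more.

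RNA came from lungs of BALB/c mice in an ovalbumin (OVA) model of allergic airways disease, in which the egg-white protein serves as allergen. PBS/PBS mice (2 arrays) received Alhydrogel alone at sensitisation and, by the labels, were challenged with PBS, whereas the methods give an OVA challenge for all mice. PBS/OVA mice (4 arrays) also received Alhydrogel alone, but their challenges contained 10 μg OVA. OVA/OVA mice (6 arrays) were sensitised on day 0 with 50 μg OVA and then challenged with OVA. OVA/OVA DEX mice (4 arrays) were treated as OVA/OVA mice and in addition received dexamethasone (DEX), a synthetic glucocorticoid, at 3 mg/kg from day 11. All mice thus had the adjuvant, at 1 mg, and intranasal challenges with OVA or PBS from day 12 to day 15, and lungs were taken 24 hours after the last of them. The labels do not say whether each array came from its own animal, so p-values measure the spread between arrays, and the small number of arrays limits their precision. In these bulk samples, fewer cells of a type and less RNA per cell cannot be told apart.

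Genomically clustered miRNAs can be made from one primary transcript. Drosha cuts the hairpins from it, Dicer releases a duplex of a 5p and a 3p strand, and one strand, or at times either, is loaded into an Argonaute protein. The strand that is not loaded is degraded, so neighbours made from one transcript, and the arms of one hairpin, can differ in level. Targets are recognised mainly by the seed, bases 2 to 8 of the mature strand.

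In RefSeq (GRCm38.p6), the 5 hairpins of these miRNAs lay on the minus strand of chromosome X in the order Mir532 (7248402 to 7248497), Mir188 (7247989 to 7248056), Mir362 (7241982 to 7242046), Mir501 (7241243 to 7241351) and Mir500 (7237683 to 7237774), as read along that strand. Together they spanned 10.8 kb. All 5 fell within the span of Clcn5, which is encoded on the same strand and gives an endosomal chloride and proton exchanger. Whether a hairpin is intronic or exonic was not looked up, since the annotation used here gives gene spans without exons. Mir532 and Mir188 were separated by 345 bases and Mir362 and Mir501 by 630, while 5942 bases lay between Mir188 and Mir362 and 3468 between Mir501 and Mir500.

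RefSeq mature sequences were matched for 8 of the 9 members, the exception being mmu-miR-532-5p. They are shown 5′ to 3′, with the seed in capitals, so that relatives among the neighbours can be seen.
mmu-miR-188-5p: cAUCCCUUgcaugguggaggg
mmu-miR-362-5p: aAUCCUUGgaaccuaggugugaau
mmu-miR-501-5p: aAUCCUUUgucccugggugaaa
mmu-miR-362-3p: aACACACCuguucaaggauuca
mmu-miR-500-3p: aAUGCACCugggcaaggguuca
mmu-miR-501-3p: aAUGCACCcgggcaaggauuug
mmu-miR-188-3p: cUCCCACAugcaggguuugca
mmu-miR-532-3p: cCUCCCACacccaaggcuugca
MiR-500-3p and miR-501-3p had the seed AUGCACC in common and were the only pair among the 8 with one seed. They were identical at 18 of 22 positions. MiR-362-3p matched miR-500-3p at 17 positions and miR-362-5p matched miR-501-5p at 16, each without an offset. MiR-188-3p and miR-532-3p matched at 17 positions when shifted by 1 base. Whether a probe for one of these miRNAs also read its relative was not tested.

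Values are given as log2 scaled signal, for which the probes of a miRNA were summed and the sum set against the 75th percentile, on that array, of the 206 miRNAs that all 16 arrays detected. Each unit of 1 is a doubling. Signals below 2.61 were set to that floor, which is 1.39 in log2. Probes differ in how brightly they bind, so levels were compared between arrays and not between miRNAs. Differences between groups were tested with limma over all 266 miRNAs tested, with Benjamini-Hochberg adjustment. A miRNA was called, and is said to have risen or fallen, when it changed 2-fold or more with an adjusted p under 0.05.

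Before scaling, the summed signal of the mouse miRNAs was 793227 and 940050 on the PBS/PBS arrays. PBS/OVA arrays had 493063 to 718149, OVA/OVA DEX arrays had 499733 to 638811 and OVA/OVA arrays had 251350 to 733489. In OVA/OVA, 4 of the 6 arrays were dimmer than any other array, while replicates 1 and 4, at 707731 and 733489, were brighter than every OVA/OVA DEX array. The arrays lay on 2 slides. Each held arrays of the 3 groups challenged with OVA, and both PBS/PBS arrays lay on slide 1. PBS/OVA replicate 2 stood apart in miR-188-5p, as described with that miRNA. The main differences of miR-188-5p are given with and without it, while most other results for miR-188-5p include it.

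Compared to PBS/OVA, which asks what sensitisation adds to the challenge, miR-362-5p rose 2.64-fold in OVA/OVA lungs, and the other 5 members tested were also higher on average. With 1 of 6 members called, against 3.38% of all miRNAs tested that were called higher, the count alone is small. By adjusted p without the 2-fold requirement, 4 of 6 members were higher (miR-362-5p, miR-362-3p, miR-500-3p and miR-532-5p), against 14.7% of all miRNAs tested. In the same 4 miRNAs all OVA/OVA arrays exceeded all PBS/OVA arrays, as in 10.9% of all miRNAs tested. The median difference of the members was 0.73 on the log2 scale, compared to -0.04 for all miRNAs tested.

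Compared to OVA/OVA DEX, which asks what the steroid changes in allergic mice, miR-188-5p and miR-362-5p were called higher in OVA/OVA, 3.15-fold and 2.62-fold. These 2 of 6 members stand beside 9.4% of all miRNAs tested that were called higher. By adjusted p alone, 5 of 6 were higher, against 21.1% of all miRNAs. Here 4 members did not overlap (miR-188-5p, miR-362-5p, miR-500-3p and miR-532-5p), against 14.7%. The members' median difference was 0.87 and that of all miRNAs was -0.09.

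Compared to PBS/PBS, miR-362-5p rose 2.99-fold and miR-532-5p rose 2.00-fold, so that 2 of 6 members were called, against 6.02% of all miRNAs tested. By adjusted p alone, 4 of 6 were higher, against 13.2%. The OVA/OVA arrays did not overlap with the 2 PBS/PBS arrays in 5 members, all except miR-532-3p, against 25.9% of all miRNAs. The median difference was 0.86 for the members and -0.02 for all miRNAs. These 3 comparisons share the OVA/OVA arrays and are therefore not independent of each other.

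Among the other groups, limma called 0 of 6 members between OVA/OVA DEX and PBS/PBS, where 0.0% of all miRNAs tested were called higher. Between PBS/OVA and PBS/PBS it also called 0 of 6, where 0.376% of all miRNAs were called higher. By unadjusted p, 0 of the 12 values of the members in these comparisons were under 0.05. With 2 PBS/PBS arrays, small differences were not detectable here. On the log2 scale the members' differences ran from -0.14 to 0.19 between OVA/OVA DEX and PBS/PBS. Between PBS/OVA and PBS/PBS they ran from 0.01 to 0.94, and the highest was that of miR-188-5p.

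**Figure D1:**
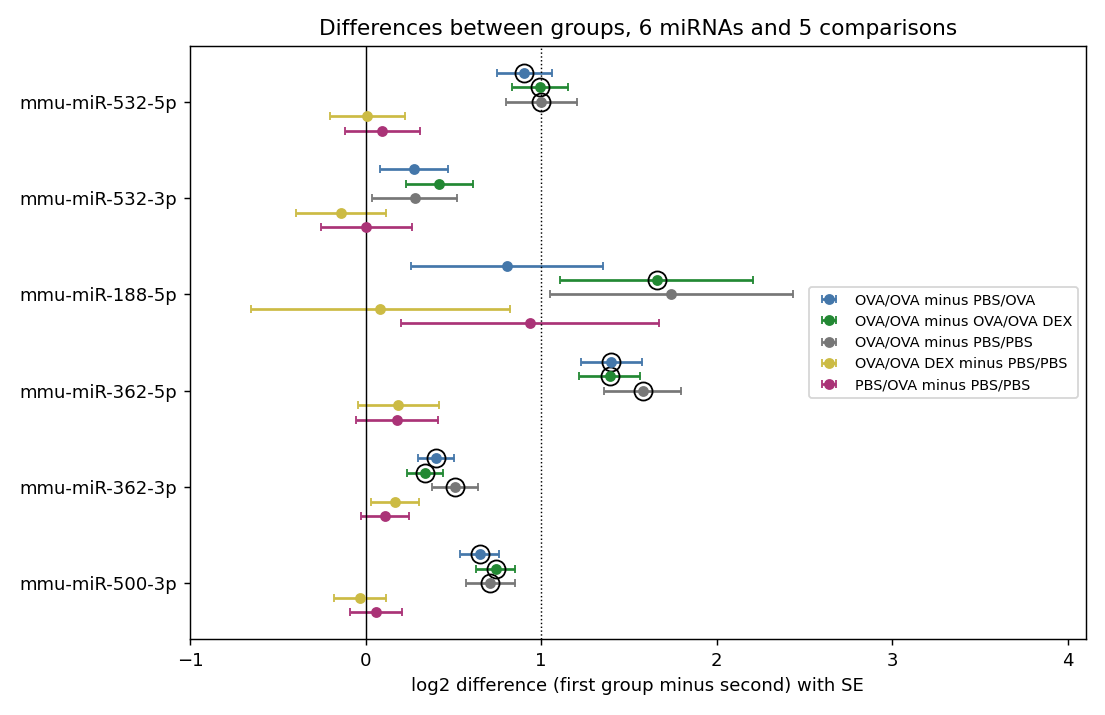
Log2 differences between groups (x axis, first group minus second) with their limma standard errors for the 6 members tested (y axis), in 5 comparisons shown by colour. Black rings mark adjusted p under 0.05 and the dotted line marks a 2-fold change. All 6 members lie above 0 in the 3 comparisons of OVA/OVA with another group, from 0.28 for miR-532-3p to 1.74 for miR-188-5p, although other scalings turned the sign of miR-532-3p, miR-362-3p, miR-500-3p or miR-532-5p in 1 or more of them.

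MiR-532-5p comes from the first hairpin of the cluster. Its log2 signal was 5.81 and 5.79 on the PBS/PBS arrays. The 4 PBS/OVA arrays gave 5.81, 6.00, 5.98 and 5.81, and the 4 OVA/OVA DEX arrays gave 5.97, 5.82, 5.94 and 5.51. In OVA/OVA, the lowest of 6 arrays was 6.38, the median 6.87 and the highest 7.22. Every OVA/OVA array lay above every array of the other groups, which overlapped among themselves. Its difference from PBS/OVA was 0.91 (SE 0.158, limma adjusted p = 0.000799), just short of 2-fold. That from OVA/OVA DEX, 0.99 (SE 0.158, adjusted p = 0.000307), was also just short. The difference from PBS/PBS, 1.00 (SE 0.2, adjusted p = 0.00381), was called. This call sat at the 2-fold threshold. It was lost without PBS/PBS replicate 2, OVA/OVA replicates 1, 2, 3 or 6, or OVA/OVA DEX replicate 4, where the difference was 0.92 to 1.00, and the highest adjusted p with an array left out was 0.0596. The comparison with OVA/OVA DEX was called, at 1.03 to 1.08, without OVA/OVA replicate 4 or 5 or OVA/OVA DEX replicate 1 or 3, and also with the slide as a block (1.03, adjusted p = 0.000175). Both probes moved alike: against PBS/OVA the probe differences were 0.88 and 0.91. With the array brightness as a covariate, the differences were 0.88, 0.97 and 0.94 in the same order of comparisons, and the adjusted p against PBS/PBS was 0.0636. Without scaling between arrays the value against PBS/PBS turned to -0.09.

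MiR-532-3p, from the other arm of that hairpin, was much less clear. Its log2 signal was 4.65 and 4.46 in PBS/PBS. In PBS/OVA it was 4.57, 4.69, 4.57 and 4.42, and in OVA/OVA DEX 4.99, 4.19, 4.03 and 4.46. The OVA/OVA arrays ran from 4.27 over a median of 4.82 to 5.26. OVA/OVA overlapped with each of the other groups, and OVA/OVA replicate 6 lay below all PBS/OVA arrays. Limma did not call a difference, with 0.28 against PBS/OVA (SE 0.192, adjusted p = 0.277), 0.42 against OVA/OVA DEX (SE 0.192, adjusted p = 0.0792) and 0.28 against PBS/PBS (SE 0.243, adjusted p = 0.378). The sign of all 3 turned under scaling by control spots. That from PBS/OVA and from PBS/PBS also turned under quantile normalization or no scaling, and that from PBS/PBS when scaled over all mouse miRNAs. Of its 4 probes, 3 were not well above background on any array, so that 1 probe carries this miRNA. Leaving out those 3 gave 0.35 against PBS/OVA, still under 2-fold. The adjusted p was then 0.0465, the lowest of any alternative in that comparison. With 1 array left out, the adjusted p against OVA/OVA DEX ran from 0.0156 to 0.235.

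MiR-188-5p, from the hairpin next to miR-532, was near the limit of detection in most lungs. Its log2 signal was 4.81 and 4.98 in PBS/PBS. The PBS/OVA arrays gave 4.97, 8.20, 5.03 and 5.14, and the OVA/OVA DEX arrays 5.24, 4.50, 5.06 and 5.13. In OVA/OVA, the lowest array was at 5.87, the median at 6.83 and the highest at 7.49. All 6 OVA/OVA arrays lay above all arrays of the other groups except PBS/OVA replicate 2, which was higher than any OVA/OVA array. Feature Extraction called miR-188-5p detected on every array of PBS/PBS, PBS/OVA and OVA/OVA, but on 1 of the 4 OVA/OVA DEX arrays.

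With all arrays, miR-188-5p was called against OVA/OVA DEX, at 1.66 (SE 0.549, adjusted p = 0.0212). This call was lost without OVA/OVA DEX replicate 2, at 1.50 and an adjusted p of 0.0621. The difference from PBS/OVA was 0.81 (SE 0.549, adjusted p = 0.267), and that from PBS/PBS was 1.74 (SE 0.694, adjusted p = 0.0753). Without PBS/OVA replicate 2, miR-188-5p was called in these comparisons too. It was then 1.60 higher than in PBS/OVA, with an adjusted p of 0.00223, and 1.74 higher than in PBS/PBS, with an adjusted p of 0.00381. The call against OVA/OVA DEX had an adjusted p of 0.000348 without that array. With all arrays and the array brightness as a covariate, the differences were 0.40, 1.32 and 0.92 for PBS/OVA, OVA/OVA DEX and PBS/PBS in turn, and none was called. The call against OVA/OVA DEX was also lost under normexp background correction (0.51, adjusted p = 0.224), without scaling (1.37, adjusted p = 0.0814) and with quantile normalization (1.41, adjusted p = 0.0655). It was lost as well with control spots (1.13, adjusted p = 0.0537), without the detection filter (adjusted p = 0.0598) and within slide 1 (1.64, adjusted p = 0.224). Each of these settings kept PBS/OVA replicate 2, which enters the spread shared by all groups, and was not run without it. The difference from PBS/PBS was called with the slide as a block (2.21, adjusted p = 0.0397), with PBS/PBS and OVA/OVA alone in the fit (adjusted p = 0.0338) and with normexp (1.13, adjusted p = 0.0253).

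The 4 probes of miR-188-5p were set side by side, since a single probe could have produced the high array. On PBS/OVA replicate 2, the unscaled probe signals were 64.1 to 78.8. On the other PBS/OVA arrays no probe exceeded 13.1 and on the OVA/OVA arrays none exceeded 46.8. All 4 probes were thus high together on that array. Over all miRNAs tested, 5 of 266 were at least 4-fold higher on PBS/OVA replicate 2 than on any other PBS/OVA array, and miR-188-5p was the third of them, at 8.34-fold.

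**Figure D2:**
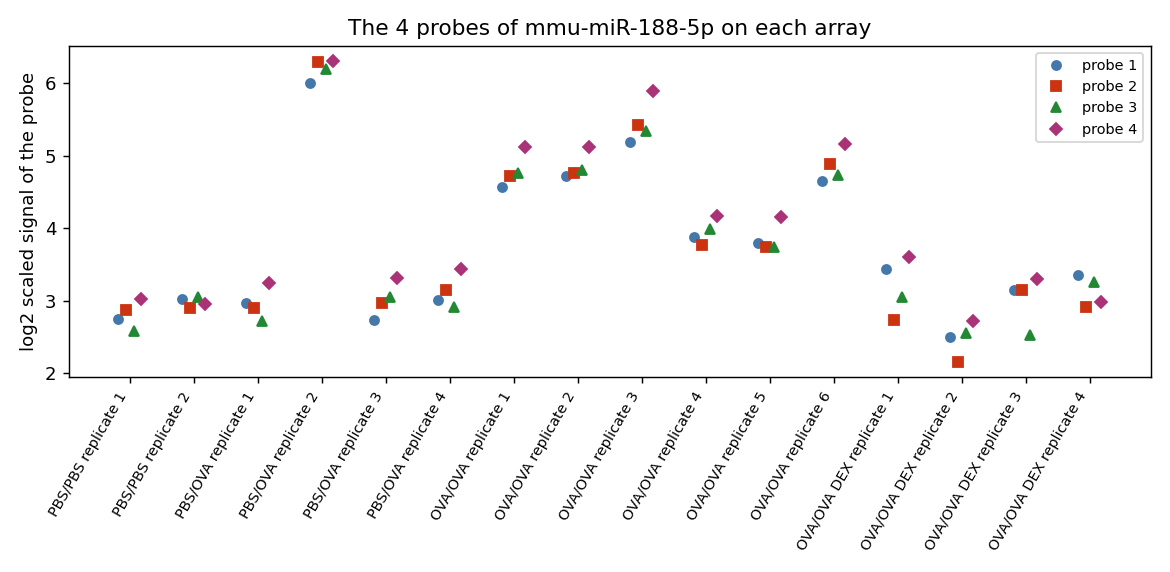
Log2 scaled signal (y axis) of each of the 4 probes of miR-188-5p on each of the 16 arrays (x axis). The probes lie together on PBS/OVA replicate 2, above all other arrays, and on the OVA/OVA arrays, above the remaining arrays of the other groups.

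MiR-362-5p showed the clearest change in the cluster. Its log2 signal was 5.72 and 5.74 in PBS/PBS. The PBS/OVA arrays gave 5.73, 6.11, 5.85 and 5.95, and the OVA/OVA DEX arrays 6.08, 5.89, 6.16 and 5.54. The 6 OVA/OVA arrays ran from 6.81 over a median of 7.48 to 7.63. OVA/OVA did not overlap with any other group, and the other groups overlapped. The difference was 1.40 against PBS/OVA (SE 0.173, adjusted p = 0.000233), 1.39 against OVA/OVA DEX (SE 0.173, adjusted p = 4.24e-05) and 1.58 against PBS/PBS (SE 0.219, adjusted p = 0.000446). All 3 calls held with each array left out in turn, with differences of 1.20 to 1.68. They also held with the slide as a block, at 1.42, 1.41 and 1.67, and with the array brightness as a covariate, at 1.31, 1.32 and 1.41. On OVA/OVA replicates 1 and 4, the brightest of the group, miR-362-5p was at 7.52 and 6.91, above every array of the other groups. The calls against PBS/OVA and PBS/PBS were lost without scaling between arrays, at 0.88 and 0.48, and those against PBS/OVA and OVA/OVA DEX with normexp, at 0.73 and 0.57. With control spot scaling the differences were 0.88, 0.86 and 0.91, under 2-fold, with adjusted p of 0.0267, 0.0075 and 0.0382. Of its 4 probes, 2 were well above background on all 16 arrays, and against PBS/OVA these differed by 1.42 and 1.27. The other 2 were well above background on none.

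MiR-362-3p changed less. Its log2 signal was 7.36 and 7.38 in PBS/PBS, and 7.50, 7.54, 7.48 and 7.40 in PBS/OVA. The OVA/OVA DEX arrays gave 7.64, 7.47, 7.44 and 7.61, and the OVA/OVA arrays ran from 7.56 over a median of 7.90 to 8.19. OVA/OVA lay above all PBS/OVA and PBS/PBS arrays, and 5 of its 6 arrays above all OVA/OVA DEX arrays. The differences were small and passed the adjusted p, with 0.40 against PBS/OVA (SE 0.102, adjusted p = 0.0101), 0.34 against OVA/OVA DEX (SE 0.102, adjusted p = 0.0139) and 0.51 against PBS/PBS (SE 0.129, adjusted p = 0.0131). None reached 2-fold. The signs depended on the scaling. Control spots gave -0.12, -0.19 and -0.16, no scaling gave -0.12 against PBS/OVA and -0.59 against PBS/PBS, and the percentile over all mouse miRNAs gave -0.03 against PBS/PBS.

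MiR-500-3p, from the last hairpin, was at 7.31 and 7.27 in PBS/PBS. It was at 7.38, 7.33, 7.27 and 7.41 in PBS/OVA and at 7.41, 7.21, 7.44 and 6.96 in OVA/OVA DEX. In OVA/OVA the lowest of the 6 arrays was 7.68, the median 8.06 and the highest 8.19. All OVA/OVA arrays were higher than all other arrays. The difference was 0.65 against PBS/OVA (SE 0.111, adjusted p = 0.000781), 0.74 against OVA/OVA DEX (SE 0.111, adjusted p = 0.000181) and 0.71 against PBS/PBS (SE 0.14, adjusted p = 0.00364). In folds these are 1.57, 1.67 and 1.64, under the 2-fold requirement. Its 2 probes differed by 0.72 and 0.62 against PBS/OVA. Without scaling between arrays, the value against PBS/PBS was -0.39.

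**Figure D3:**
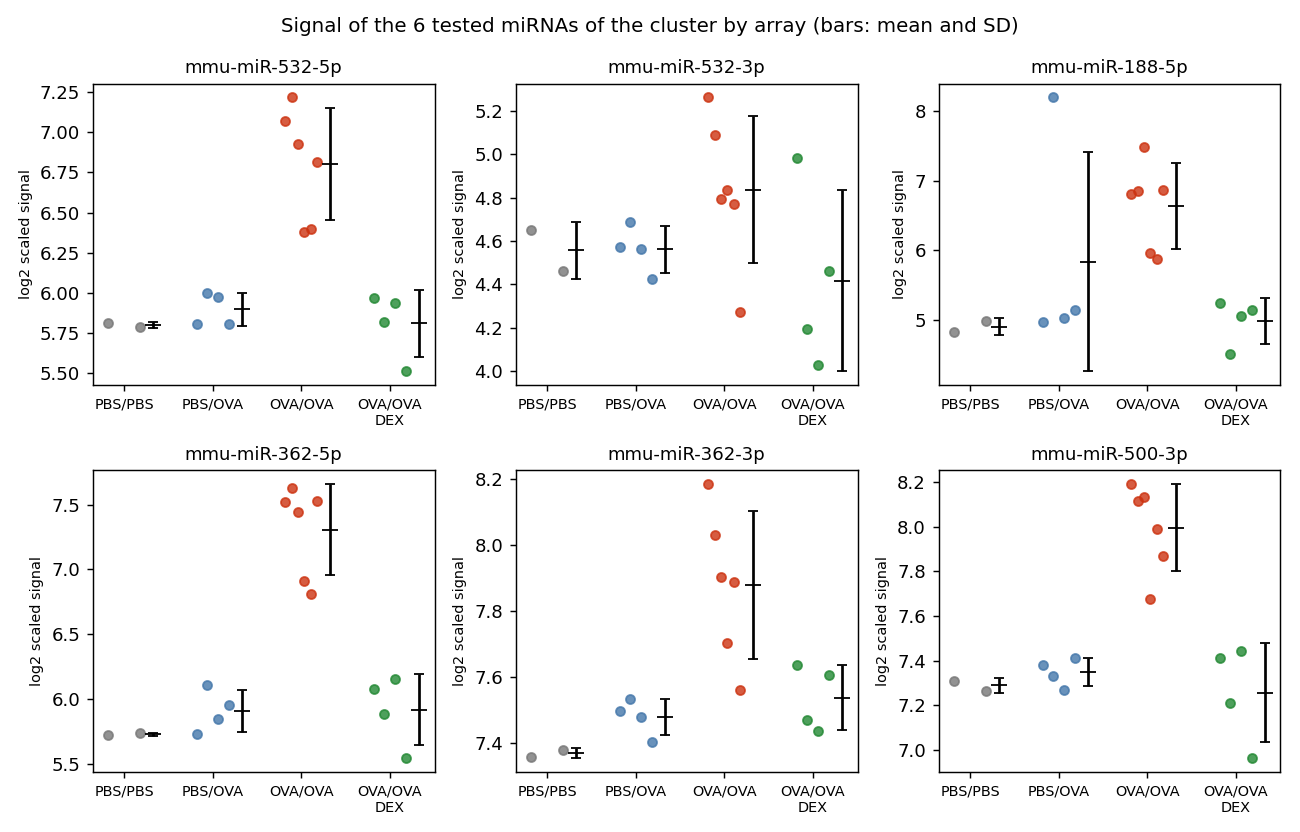
Log2 scaled signal (y axis) of the 6 members tested on each array, by group (x axis), with the mean and SD of each group beside the points. In miR-532-5p, miR-362-5p and miR-500-3p all OVA/OVA arrays lie above all other arrays, and in miR-188-5p 1 PBS/OVA array, at 8.20, lies above them.

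The remaining 3 members gave no usable level. MiR-501-3p was called detected on 1 of 16 arrays, OVA/OVA replicate 1, and miR-188-3p and miR-501-5p on 0. Each has 4 probes, none of which was well above background on any array, and the sum over the 4 was at or under the floor on all 16 arrays for each of these miRNAs. A single probe of miR-501-3p was above the floor on 11 of 16 arrays, with a mean of 2.73 in OVA/OVA compared to 1.54 in PBS/OVA, 1.43 in OVA/OVA DEX and 1.39 in PBS/PBS. That miRNA shares its seed with miR-500-3p, and this probe was never well above background.

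Scaling affected the size of the differences and, in miR-362-3p, miR-500-3p, miR-532-3p and miR-532-5p, the sign of 1 or more of them, and 4 of the 6 OVA/OVA arrays had been dimmer than all others before scaling. Without scaling, the median difference of all miRNAs tested was -0.55 against PBS/OVA, -0.38 against OVA/OVA DEX and -1.11 against PBS/PBS. Subtracting the median of all miRNAs from a difference removes any single factor per array, so only quantile normalization and normexp could change the values relative to it. For miR-362-5p the difference from PBS/OVA less that median was 1.44 as scaled here, 1.37 with quantile normalization and 0.42 with normexp. For OVA/OVA DEX it was 1.48, 1.36 and 0.41. MiR-532-3p had the lowest of these values, at 0.07 for PBS/OVA and -0.14 for PBS/PBS, both with quantile normalization.

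Slide was examined within each slide and as a block. Within slide 1, which had 2 arrays of each group, the differences against PBS/OVA were 1.55 for miR-362-5p, 1.11 for miR-532-5p, 0.81 for miR-500-3p, 0.56 for miR-362-3p and 0.50 for miR-532-3p. For miR-188-5p it was 0.17, and slide 1 held PBS/OVA replicate 2. Within slide 2, with 4 OVA/OVA and 2 PBS/OVA arrays, they were 1.30, 0.79, 0.49, 0.28 and 0.14 in the same order, and 1.46 for miR-188-5p. All values were thus above 0 on both slides. Within slide 2, all 6 values had an adjusted p above 0.05, and that of miR-362-5p was 0.0893. Against OVA/OVA DEX, the values on slides 1 and 2 were 1.76 and 1.03 for miR-362-5p, 1.64 and 1.64 for miR-188-5p (adjusted p = 0.224 and 0.0403), 1.40 and 0.63 for miR-532-5p and 0.96 and 0.47 for miR-500-3p. They were 0.48 and 0.18 for miR-362-3p and 0.45 and 0.43 for miR-532-3p. Against PBS/PBS, which only slide 1 held, they were 1.80 for miR-362-5p, 1.89 for miR-188-5p, 1.30 for miR-532-5p and 0.82 for miR-500-3p.

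The arms of a hairpin are cut from the same precursor. Both are read on the same array, so any single scaling factor of that array cancels in their ratio, while quantile normalization and normexp can still change the ratio. The change of this ratio between groups is independent of such a factor. This change was tested for 46 hairpins with both arms tested, among them miR-362 and miR-532, with limma and an adjusted p over the 46. The log2 ratio of 5p to 3p signal of miR-362 was -1.64 and -1.64 in PBS/PBS, -1.77, -1.43, -1.63 and -1.45 in PBS/OVA, and -1.56, -1.58, -1.28 and -2.07 in OVA/OVA DEX. In OVA/OVA it ran from -1.08 over a median of -0.56 to -0.03. All 6 OVA/OVA arrays lay above all arrays of the other groups. The negative sign itself says little, as the probes of the arms differ.

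Compared to PBS/OVA, the 5p over 3p ratio of miR-362 in OVA/OVA was 1.00 higher in log2 (SE 0.188, limma adjusted p = 0.00228). The increase over OVA/OVA DEX was 1.05 (SE 0.188, adjusted p = 0.00343) and that over PBS/PBS 1.07 (SE 0.238, adjusted p = 0.0125). Of the 46 hairpins, 6.52%, 21.7% and 4.35% had a higher ratio in OVA/OVA by this test in these comparisons, and 2.17%, 17.4% and 2.17% a lower one. The change of miR-362 was the 4th, 6th and 4th highest of the 46. The calls against PBS/OVA and OVA/OVA DEX held with each array left out in turn, at 0.89 to 1.16. That against PBS/PBS was lost without PBS/PBS replicate 1 or 2, which leaves 1 array in the group, with adjusted p of 0.183 and 0.113. It was also lost with the slide as a block (1.02, adjusted p = 0.0515), with quantile normalization (0.81, adjusted p = 0.0636), with the brightness of the array as a covariate (adjusted p = 0.45) and with PBS/PBS and OVA/OVA alone in the fit (adjusted p = 0.0607). Within slide 1 the change was 1.00 from PBS/OVA and 1.28 from OVA/OVA DEX, and within slide 2 it was 1.02 and 0.84, where of these 4 values the one of slide 1 against OVA/OVA DEX passed (adjusted p = 0.0205). Normexp, which adds an offset of 50 to each probe, reduced it to 0.31 and 0.24, with adjusted p of 0.104 and 0.157.

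The same ratio of miR-532 was 1.16 and 1.32 in PBS/PBS, and 1.23, 1.31, 1.41 and 1.38 in PBS/OVA. The OVA/OVA DEX arrays were widely spread, at 0.99, 1.63, 1.91 and 1.05, and OVA/OVA ran from 1.54 over a median of 1.97 to 2.55. OVA/OVA lay above all PBS/OVA and PBS/PBS arrays, and 3 of its 6 arrays above all OVA/OVA DEX arrays. The ratio was higher by 0.63 against PBS/OVA (SE 0.211, adjusted p = 0.0933), by 0.57 over OVA/OVA DEX (SE 0.211, adjusted p = 0.0444) and by 0.72 against PBS/PBS (SE 0.267, adjusted p = 0.128). Of these, only that against OVA/OVA DEX passed. With 1 array left out it passed in 3 of 16 cases, without OVA/OVA replicate 4 or 5 or OVA/OVA DEX replicate 3, and the adjusted p ran from 0.0215 to 0.161. The change from PBS/OVA passed in the same 3 cases, with the lowest adjusted p at 0.0377. For OVA/OVA DEX the change was 0.95 within slide 1 and 0.20 within slide 2, and with the slide as a block the adjusted p was 0.0588. With array brightness as a covariate, the change of miR-532 was 0.43, 0.41 and 0.31, and that of miR-362 was 0.85, 0.93 and 0.76, for PBS/OVA, OVA/OVA DEX and PBS/PBS in turn.

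**Figure D4:**
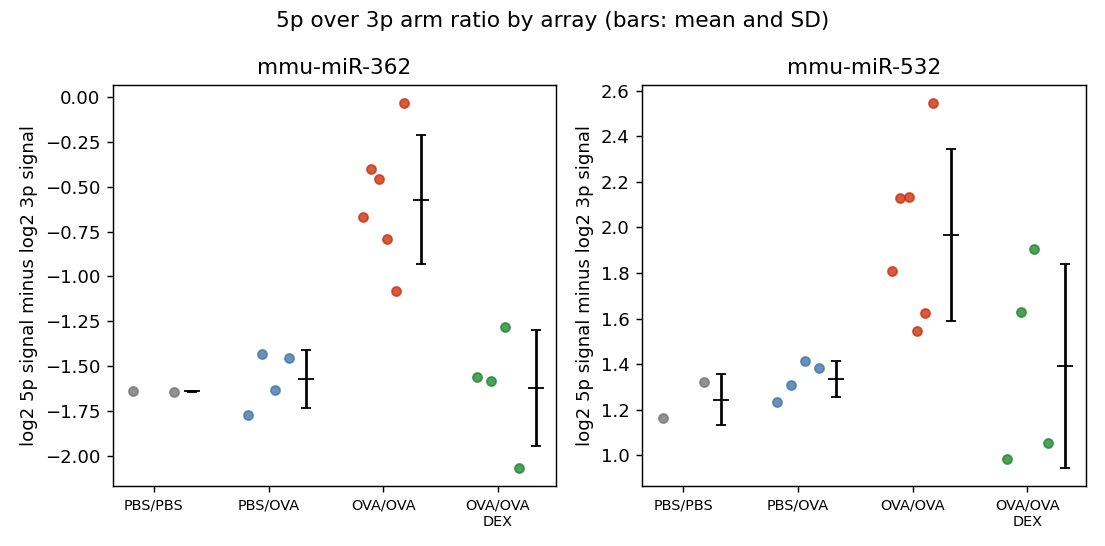
Log2 ratio of the 5p to the 3p signal (y axis) of miR-362 and miR-532 on each array, by group (x axis), with the mean and SD beside the points. For miR-362 all OVA/OVA arrays, from -1.08 to -0.03, lie above all other arrays, while for miR-532 some OVA/OVA DEX arrays reach into the OVA/OVA range.

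The differences were then read along the strand, by arm. Against PBS/OVA, the 5p arms differed by 0.91 (miR-532), 0.81 (miR-188, with PBS/OVA replicate 2 included) and 1.40 (miR-362). The 3p arms differed by 0.28 (miR-532), 0.40 (miR-362) and 0.65 (miR-500). In the comparison with OVA/OVA DEX, the 5p arms differed by 0.99, 1.66 and 1.39 and the 3p arms by 0.42, 0.34 and 0.74 in the same order. Each 5p value was above each 3p value as fitted here, but this order depended on the processing. Against PBS/OVA with quantile normalization, miR-188-5p (0.50) and miR-532-5p (0.642) lay below miR-500-3p (0.646), and when brightness was a covariate miR-188-5p (0.40) lay below the 3p arms of miR-532 (0.45), miR-362 (0.46) and miR-500 (0.63). Within slide 1, miR-188-5p (0.17) also lay below the 3p arms of miR-532 (0.50), miR-362 (0.56) and miR-500 (0.81). With normexp, miR-188-5p (0.44) lay below miR-500-3p (0.57), as it did without PBS/OVA replicate 1, 3 or 4. Without PBS/OVA replicate 2, miR-188-5p was at 1.60. The signs of miR-362-3p and miR-532-3p also turned under other scalings. MiR-532 and miR-188, the closest neighbours, had 5p differences of 0.99 (SE 0.158) and 1.66 (SE 0.549) against OVA/OVA DEX. The larger SE comes from a spread shared by all groups, PBS/OVA replicate 2 included. The neighbours were not tested against each other, and only 3 arms of each kind were measured.

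**Figure D5:**
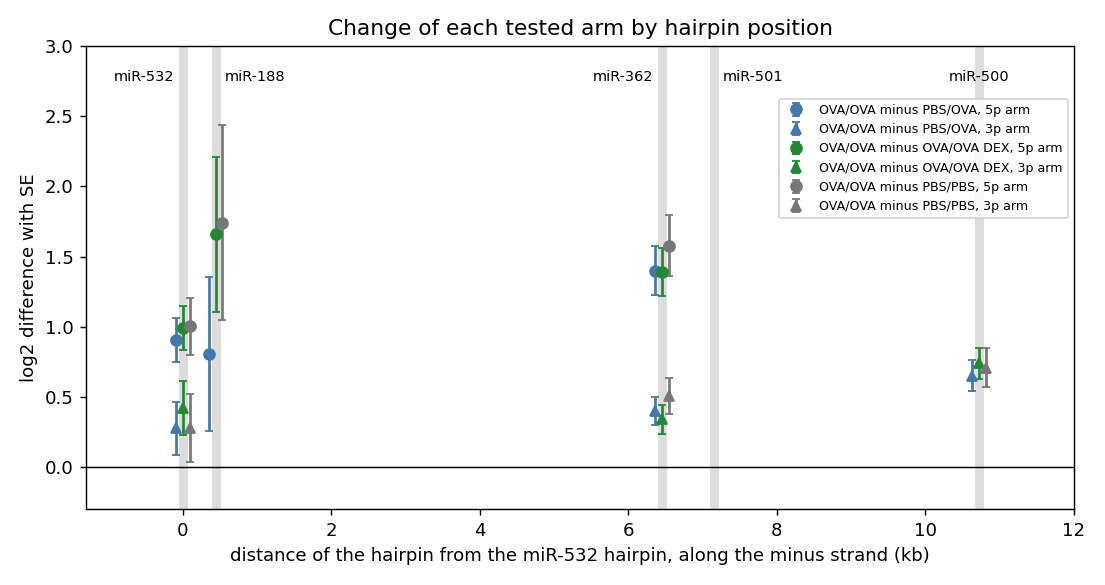
Log2 differences with SE (y axis) of the 6 arms tested, placed at the distance of their hairpin from the miR-532 hairpin along the minus strand (x axis, kb), by comparison (colour) and arm (circles 5p, triangles 3p). The 5p arms at miR-532, miR-188 and miR-362 lie above the 3p arms in each comparison as fitted here. Against PBS/OVA this order did not hold with quantile normalization, a brightness covariate or normexp. It also did not hold within slide 1 or without PBS/OVA replicate 1, 3 or 4. The arms of miR-501 were not detected often enough to be placed.

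Over the 16 arrays, the mean profile of the 5 members detected on all arrays, each centred on its own mean, was closest to that of miR-340-5p among the other miRNAs detected on all arrays. The root mean square difference was 0.107 on the log2 scale, where the median over those miRNAs was 0.5. What the arrays share, such as brightness and slide, enters this measure. MiR-378-5p (0.132), miR-19a-3p (0.133), miR-7a-5p (0.178) and miR-20a-5p (0.183) came next. Among the members themselves, miR-500-3p (0.105) and miR-532-5p (0.143) were nearest to their own mean, and miR-362-5p was the farthest at 0.363. Each member enters that mean, which draws it nearer. Even so, miR-340-5p was nearer than every member except miR-500-3p. All 5 of these other miRNAs were nearer than miR-362-3p (0.212), miR-532-3p (0.295) and miR-362-5p. The 5 nearest miRNAs were picked for a profile like that of members higher in OVA/OVA. Their own differences follow from that choice and are given as values only. All 5 were higher in OVA/OVA by adjusted p in each comparison. MiR-7a-5p was called against OVA/OVA DEX, at 1.09 (SE 0.124, adjusted p = 2.62e-05), and against PBS/PBS, at 1.11 (SE 0.157, adjusted p = 0.000446).

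Other miRNAs encoded on the X chromosome were set beside the members, by counts and medians. Of 58 such names on the array, 2 had no RefSeq entry and 0 lay on another chromosome, and 18 were tested. Against PBS/OVA, 1 of the 18 was called higher and 0 lower, with a median difference of -0.09. The one called was miR-223-3p, a myeloid miRNA, at 1.12 (SE 0.155, adjusted p = 0.00032). Between OVA/OVA and OVA/OVA DEX, 1 was called higher and 1 lower, with a median of -0.02. These were miR-503-5p, of the miR-16 seed family, which was higher in OVA/OVA by 1.15 (SE 0.185, adjusted p = 0.000307), and miR-322-3p, from the same X-linked cluster, which was lower, at -1.73 (SE 0.649, adjusted p = 0.0373). MiR-322-3p was detected on only 13 of the 16 arrays. The other arm, miR-322-5p, was detected on all 16 and differed by 0.12 (SE 0.108, limma adjusted p = 0.402). Against PBS/PBS, 1 of 18 was called higher, miR-223-3p at 1.23 (SE 0.196, adjusted p = 0.0011). By adjusted p alone, 3 of the 18 were higher and 2 lower than in PBS/OVA, and 3 higher and 7 lower than in OVA/OVA DEX. Against PBS/PBS, 2 were higher and 2 lower. Of all miRNAs tested, 14.7%, 21.1% and 13.2% were higher by adjusted p in these comparisons in turn. The shares called higher were 3.38%, 9.4% and 6.02%. Counts of lower miRNAs had no such share set beside them. The summed signal of the list, in log2, was 13.46 to 13.84 on OVA/OVA arrays. It was 13.12 to 13.18 on PBS/PBS, 13.13 to 13.23 on PBS/OVA and 13.22 to 13.48 on OVA/OVA DEX arrays, so that OVA/OVA overlapped with the last of these groups.

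MiRNAs typical of particular cell types also differed between the groups. Of 6 haematopoietic miRNAs (miR-142-3p, miR-142-5p, miR-150-5p, miR-155-5p, miR-223-3p and miR-342-3p), 3 were called higher than in PBS/OVA and 2 higher than in OVA/OVA DEX, with median differences of 0.85 and 0.73. Over all miRNAs tested, 3.38% and 9.4% were called higher in these comparisons, with medians of -0.04 and -0.09. The haematopoietic miRNAs include miR-223-3p. Their summed signal, in log2, was 15.02 to 15.58 on OVA/OVA arrays. It was 14.36 to 14.53 on PBS/PBS arrays, 14.00 to 14.57 on PBS/OVA arrays and 14.18 to 14.74 on OVA/OVA DEX arrays. It thus moved with the members. Of 3 red cell miRNAs listed, miR-486-5p was not matched by name and is left out here. The 2 tested, miR-451 and miR-144-3p, were called lower in OVA/OVA than in OVA/OVA DEX, with a median of -1.05. No share of all miRNAs called lower was set beside this count. The summed signal of these 2 miRNAs was 15.18 to 16.11 on OVA/OVA and 16.61 to 17.06 on OVA/OVA DEX arrays. The part of cell composition in the changes of the cluster was not tested.

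Markers of endothelium and epithelium, expected in the labelled tissue, were present, but no other tissue was set beside these arrays. Both arms of endothelial miR-126, 5 of 6 epithelial miRNAs of the miR-200 family and miR-205, and 4 of 5 ciliated cell miRNAs were detected on all 16 arrays. So were 2 of 2 smooth muscle and 4 of 6 striated muscle miRNAs, and detection alone therefore cannot set lung apart. Against PBS/OVA, 0 of the 5 epithelial, 4 ciliated, 2 endothelial, 2 smooth muscle and 4 striated muscle miRNAs tested were called. Their median differences were -0.04, -0.07, -0.39, -0.04 and -0.83. By adjusted p alone, 2 endothelial and 3 striated muscle miRNAs were lower in OVA/OVA and 1 epithelial miRNA was higher. In the comparison with OVA/OVA DEX, 1 ciliated cell miRNA, miR-449a-5p, was called higher, at 2.04 (SE 0.273, adjusted p = 8.77e-05), while miR-34b-5p and miR-34c-5p were lower by adjusted p, at -0.28 and -0.36, and the median of the 4 was -0.32. By adjusted p, 2 endothelial, 2 smooth muscle, 3 striated muscle and 1 epithelial miRNA were also lower than in OVA/OVA DEX, and 1 epithelial miRNA was higher. Against PBS/PBS, 2 striated muscle miRNAs were called lower. Of all miRNAs tested, 14.7% were higher by adjusted p than in PBS/OVA and 21.1% than in OVA/OVA DEX, where 9.4% were called higher. Counts of lower miRNAs had no share over all miRNAs tested set beside them, so they cannot be read as particular to these cell types.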

How the data were processed

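MiRNA expression in lung was measured on 16 Agilent arrays in 1 colour. For each array the authors deposited spot intensities as Feature Extraction 10.7.3.1 (per the labels) gave them, after subtraction of local background and before any normalization. The authors also deposited log2 processed values, of unstated scaling and centring, and these served as an alternative. They matched the scanner totals within 0.15 for 33 miRNAs, of which 2, miR-362-3p and miR-532-5p, are members.

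Control spots and spots flagged as outliers (2.58% to 3.7% of 13000) were left out, spots of a probe averaged, probes of a miRNA summed and arrays scaled to their 75th percentile over 206 miRNAs detected on all arrays. A floor of 2.61 was used, the median over arrays of the lowest positive signal among detected miRNAs. Group means over all 16 arrays were fitted with limma 3.58.1 in R 4.3.3, over the 266 miRNAs detected throughout 1 group or more. No spot was saturated. Tables and plots used Python 3.11.15, numpy 2.4.6, pandas 2.3.3 and matplotlib 3.10.9.

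MiRNAs were named by rule: all members, the 5 other miRNAs nearest in centred profile, and X chromosome miRNAs called against PBS/OVA or OVA/OVA DEX. Members, lists and alternatives were chosen with earlier results of these data known. Alternatives were other scalings (all miRNAs, none, quantile, control spots), normexp with an offset of 50 on median spot signals, total gene signal, the mean over probes, detection filters, floors, slide or replicate number as a block, array brightness as a covariate, variance models, the compared groups alone, each slide alone, the methods' Mann-Whitney test, no fold requirement and leaving out each array. Leaving out probes never well above background was added after the data were seen. A group left with 1 array is assumed to vary like the others. The fit was tested on simulated data.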

Additional observations from a re-analysis of the deposited data

Results flagged for a closer look

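On PBS/OVA replicate 2 the log2 signal of miR-188-5p was 8.2, while the other 3 PBS/OVA arrays lay between 4.97 and 5.14. The gap to the nearest array was 0.947 of the range of the 4 arrays, above the limit of Dixon's test for 4 samples. It was the only one among 24 sets of values, the 6 members and 2 arm ratios in each of 3 groups, in which an array stood out this far, and chance gives about 1 in 20 sets. The other members on that array were within or near the range of their group. MiR-362-5p (6.11), miR-532-5p (6.00), miR-362-3p (7.54) and miR-532-3p (4.69) were each the highest of the 4 by less than 0.2. MiR-500-3p (7.33) was not the highest.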

How the results depend on the processing

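Groups of 2 to 6 arrays limit what could be called, and miR-188-5p and miR-532-3p were near the background. Without scaling between arrays, the differences of miR-362-3p and miR-532-3p from PBS/OVA were -0.12 and -0.24, and those of miR-362-3p, miR-500-3p, miR-532-3p and miR-532-5p from PBS/PBS were -0.59, -0.39, -0.82 and -0.095. Control spot scaling gave -0.12 and -0.25 for miR-362-3p and miR-532-3p relative to PBS/OVA, -0.19 and -0.11 relative to OVA/OVA DEX and -0.16 and -0.38 against PBS/PBS. Quantile normalization turned miR-532-3p to -0.050 against PBS/OVA and -0.33 against PBS/PBS, and the percentile over all mouse miRNAs turned miR-362-3p to -0.025 and miR-532-3p to -0.25 against PBS/PBS. No difference of miR-362-5p, miR-188-5p or the arm ratios turned sign under any alternative run. Deposited values covered 2 members.

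Against PBS/OVA, where 1 member was called, 0 were called without scaling, with control spots, with normexp and within slide 2, 2 within slide 1, and 4 with no fold requirement. Against OVA/OVA DEX (2 called), 1 was called without scaling, with quantile normalization, without the detection filter and with array brightness as a covariate, 0 with control spots and with normexp, and 5 with no fold requirement. Against PBS/PBS (2 called), 1 was called with the percentile over all miRNAs, quantile normalization and the brightness covariate, 0 without scaling and with control spots, and 4 with no fold requirement. With each array left out, 1 to 2, 1 to 3 and 1 to 3 members were called in these comparisons. The methods' Mann-Whitney test called 0 against PBS/PBS, where 6 against 2 arrays cannot give an exact two-sided p below 0.0714, so this 0 says nothing about the members (4 against 2 arrays cannot go below 0.133). By construction, dropping the fold requirement adds members; the cause of the other shifts was not tested.

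A changed arm ratio against PBS/OVA, found for 1 hairpin, was found for 0 with normexp and within slide 1 and slide 2, and for 2 with total gene signal or without probes never well above background. Against OVA/OVA DEX (2 hairpins), it was 1 with quantile normalization, without the detection filter, with the slide block, with the brightness covariate and with the compared groups alone, and 0 with normexp and within slide 2. Against PBS/PBS (1 hairpin), it was 0 with quantile normalization, the slide block, the brightness covariate and the compared groups alone, and 2 with total gene signal. Leaving out each array gave 1 to 2, 1 to 2 and 0 to 1 hairpins. Between the other groups 0 members and 0 hairpins were called under every alternative run.

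With the replicate number as a block, 2 members were called against PBS/OVA, miR-532-5p being added at 1.00; it was also added against OVA/OVA DEX, at 1.09, and no call of a member or arm ratio was lost. Over 18 pairs of arrays with one number in different groups, deviations correlated at -0.793 to 0.403 (3 over 0.1), and 0 arrays correlated best with their own number, so numbers were not taken to pair arrays.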

Other observations

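With PBS/OVA replicate 2 included, miR-188-5p differed in profile from its neighbours. Over the 16 arrays, the miRNA nearest to its centred profile among the 265 others tested was the one listed as mmu-miR-689_v15.0, with a root mean square difference of 0.223 on the log2 scale, followed by miR-1897-5p (0.225), miR-1224-5p (0.335), miR-705 (0.466) and miR-135a-1-3p (0.488). The median over the 265 was 1.14. The nearest member of its own cluster, miR-362-5p, came 18th at 0.757, and miR-532-5p, whose hairpin lies 345 bases away, came 22nd at 0.799. This comparison was chosen after the values had been seen, and it includes PBS/OVA replicate 2. On that array the log2 signal of miR-188-5p was 8.20, and the likeness was not computed without it, so how far it rests on that array is not known. The 5 miRNAs at least 4-fold higher on that array than on any other PBS/OVA array were miR-1224-5p (11.1-fold), miR-1897-5p (8.38-fold), miR-188-5p (8.34-fold), miR-721 (8.33-fold) and mmu-miR-689_v15.0 (7.19-fold), so 3 of the 4 others are also among the nearest. Of the nearest 5, RefSeq gave a mature sequence for miR-1224-5p, miR-705 and miR-135a-1-3p. Guanine made up 61.9%, 70.0% and 45.5% of their bases and 38.1% of those of miR-188-5p, compared to a median of 22.7% over the 206 tested miRNAs with a sequence. In the other members with a sequence the share was 13.6% to 31.8%. The bearing of base content on these signals was not tested.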
